A study of Caenorhabditis elegans with 4 samples.

Results

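The regions described are those called for SEM-4 on the X chromosome of Caenorhabditis elegans in chromatin immunoprecipitation followed by sequencing (ChIP-seq). They are all rows of the authors' combined region list that lie on X, 1107 of 7554 regions, and the 6447 autosomal rows of the same list are their background. The replicate lists hold 786 and 362 regions on X. All 4 samples, 2 ChIP and 2 input libraries, came from L2 hermaphrodites of the strain OP57 grown at 20 °C, which carried the allele unc-119(ed3) and the transgene wgIs57. In wgIs57 sem-4 is joined to the tags TY1, EGFP and FLAG, and a copy of unc-119 is included. The transgene entered the worms by bombardment, and the GFP-tagged SEM-4 was pulled down from formaldehyde-crosslinked chromatin. Inputs are extract DNA kept aside without the pulldown, and only the ChIP libraries have region lists here. Animals were used whole, so a region can come from any cell that makes the fusion protein. Every library came from this strain, and no sample is of worms without the tag. The labels do not say that the replicates were grown separately, and the difference between the replicate lists may be technical.

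SEM-4, a member of the Spalt family of zinc-finger proteins, acts in neuronal, vulval and mesodermal cell fates of C. elegans. The X chromosome is set apart from the autosomes in this species. In hermaphrodites a condensin-containing dosage compensation complex loads along both X chromosomes and lowers their transcription, and X carries few genes that are active in the germline. The lists name no genes, and no annotation on their build, WormBase WS220, was used here, so regions are given by position. The transgene carries extra sem-4 and unc-119 sequence. The RefSeq gene table (assembly WBcel235) places those genes on chromosomes I and III, so neither native locus is on X, and the place where the transgene landed was not examined. No sequence is printed, because a genome of this build was not used here.

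Strength below means −log10 of the q-value that the authors deposited for a region. The lists give no read counts or fold enrichment, so depth is unknown and a high strength can reflect enrichment, width or depth. On X the strength of the combined regions had a median of 3.52, with quartiles of 2.62 and 6.13, and reached 223. The median over all autosomal regions was 3.99, and the 5 autosomes had medians of 3.74 to 4.41 (exact permutation p over chromosomes 0.333). In the replicates X lay inside the autosomal range, at 3.18 against 3.10 to 3.33 in replicate 1 and 3.42 against 3.22 to 3.56 in replicate 2. Strength of 5 or more was found for 367 of the 1107 X regions, or 33.2% (95% Wilson interval 30.4 to 36.0), against 38.0% of autosomal regions. Intervals on shares cover counting error only, and neighbouring regions are not independent.

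The 20 strongest X regions were all called in both replicates, and in each of them strength was highest in the combined list and lowest in replicate 2. Their strengths were 47.4 to 223 in the combined list (median 61.3), 18.1 to 145 in replicate 1 (median 42.6) and 9.87 to 73.8 in replicate 2 (median 23.6), each taken from the best overlapping region. Because they were picked by combined strength, these values are a description. Widths ran from 620 to 7222 bp with a median of 1834 bp, and 14 of the 20 spanned 1 kb or more. They were scattered along X from 2996392 to 16932599, and 5 of them had no other combined region within 5 kb.

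**Figure D1:**
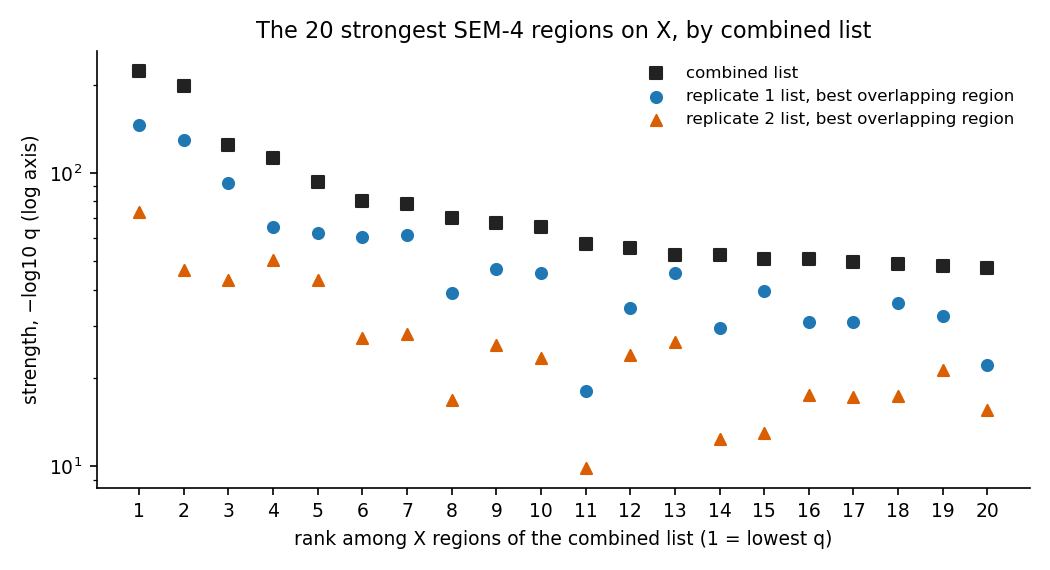
Strength (−log10 q, log axis) of the 20 strongest X regions of the combined list, ordered by rank, in the combined list and in the best overlapping region of each replicate list. In all 20 the combined value is highest and the replicate 2 value is lowest.

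The strongest of all, from 16929337 to 16932599, had a strength of 223 in the combined list, 145 in replicate 1 and 73.8 in replicate 2. It ranked first on X in every list. The widest X region, from 4142009 to 4149230, followed with 198, 129 and 46.7. Replicate 1 called it as 1 region of 7154 bp, and replicate 2 as 2 regions that covered 91.3% of it. The next in rank differed in form. It spanned 1000 bp from 14525341 to 14526340, stood 16083 bp from its nearest neighbour, and had strengths of 125, 92.7 and 43.2. Narrow and broad regions thus stood side by side at the top of the X list.

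A broad stretch of X was called as neighbours 244 bp apart. Its right part, from 6740334 to 6746373, ranked 4 on X (113 combined, 65.4 in replicate 1, 50.3 in replicate 2) and ranked 2 on X in replicate 2. Its left part, from 6735497 to 6740089, ranked 20 on X, with strengths of 47.4, 22.1 and 15.5. These regions together with 4142009 to 4149230, 11469560 to 11475734 and 6251588 to 6257453 were the 5 widest on X, between 4593 and 7222 bp. The region at 11469560 was called in pieces by both replicates. It ranked 11 on X in the combined list with a strength of 57.4. The best of its 3 parts in replicate 1 reached 18.1 (rank 35 on X there), and the best of its 2 parts in replicate 2 reached 9.87 (rank 43). The region at 6251588 was found as 2 parts in replicate 1 and 4 in replicate 2, with strengths of 70.3, 38.9 and 16.8 in the 3 lists.

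Compact regions made up much of the rest of the 20. The region from 8035871 to 8036952 had strengths of 92.8, 62.5 and 43.0 in the combined, replicate 1 and replicate 2 lists. Its neighbours in rank, from 4208501 to 4209827 and from 11093628 to 11094464, had combined strengths of 79.9 and 78.4, replicate 1 strengths of 60.4 and 61.5, and replicate 2 strengths of 27.5 and 28.2. Each was called as a single region in both replicates. The regions from 2996392 to 2997542 and from 9465414 to 9466188 had combined strengths of 67.3 and 65.2, replicate 1 strengths of 47.0 and 45.5, and replicate 2 strengths of 26.0 and 23.4. Their order was the same in all 3 lists. The most isolated of the 20 were those at 2996392 and 12362692, with no other region within 17698 and 17394 bp.

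Ranks 12 to 19 on X had nearly equal strengths in the combined list, from 48.0 to 55.6, and spread out more in the replicates. Replicate 1 strengths ran from 29.6, at 15273468 to 15275989, to 45.5, at 11605234 to 11607574. Replicate 2 strengths ran from 12.4 to 26.5, at the same pair of positions. The narrowest of the 20, at 13700494 to 13701113 and 620 bp wide, had 55.6 in the combined list, 34.6 in replicate 1 and 23.9 in replicate 2. The region from 6296103 to 6296935 showed one of the wider gaps between replicates, with 39.7 in replicate 1 and 13.0 in replicate 2. The others of this group, at 13142812 to 13145700, 10765880 to 10769021, 12362692 to 12363497 and 5840771 to 5841531, had replicate 1 strengths of 31.0 to 36.0 and replicate 2 strengths of 17.2 to 21.2. The order among ranks 12 to 19 differed between the lists.

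X contributed more of the very strongest regions than of the list as a whole. It held 24 of the strongest 100 combined regions, 24 of 100 in replicate 1 and 20 of 100 in replicate 2, where its share of all regions was 14.7%, 14.6% and 14.3%. Among the strongest 500 the share on X was 13.2%, 13.8% and 15.6%, close to its share of the whole list. Chromosome III had a similar number in the strongest 100, at 25, 24 and 29 in the 3 lists. Its share of all regions was higher than that of X, at 18.2%, 19.4% and 23.9%. Each of the other chromosomes had between 8 and 16 of the strongest 100. The lists share libraries and are not independent of each other. With 24 of 100, the 95% Wilson interval is 16.7 to 33.2%. With 20 of 100 in replicate 2 it is 13.3 to 28.9%, which includes the 14.3% share of X in that list. These intervals cover counting error only, and the excess on X was not tested over chromosomes.

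Support by the replicates split the X regions into 4 classes, with overlap meaning at least 1 shared base pair. Both replicates overlapped 298 X regions, or 26.9% (24.4 to 29.6), against 28.2% of autosomal regions. Replicate 1 alone overlapped 430, or 38.8% (36.0 to 41.7), against 36.0%. Replicate 2 alone overlapped 46, or 4.16%, against 3.99%. Neither replicate overlapped 333, or 30.1% (27.5 to 32.8), against 31.8%. All 4 shares on X were near the autosomal background. The share in both ranged from 15.2% on chromosome I to 35.5% on III among the autosomes, and X lay inside that range.

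Because the lists share libraries, combined strength and replicate support are tied in part by construction, and their relation is given as a description. On X, regions in both replicates had a median strength of 10.0 and a median width of 710.5 bp. Those in replicate 1 only had 3.51 and 421 bp, those in replicate 2 only 3.91 and 521.5 bp, and those in neither 2.49 and 339 bp. The strongest X region that neither replicate overlapped had a strength of 4.26. Among the 367 X regions of strength 5 or more, 277 were in both replicates, or 75.5% (70.8 to 79.6), and 0 were in neither, which allows a share of up to 0.817% (3 counts of 367). Chromosome II also had 0 in neither, of 406, while V had 1 of 456, III had 3 of 591, IV had 3 of 585 and I had 23 of 415. At the same strength, the share in both was 72.7 to 76.5% on chromosomes II to V and 40.7% on I. The value of X lay within the range of chromosomes II to V and above the mean of the 5 autosomes, 68.0%, which includes the low value of I.

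**Figure D2:**
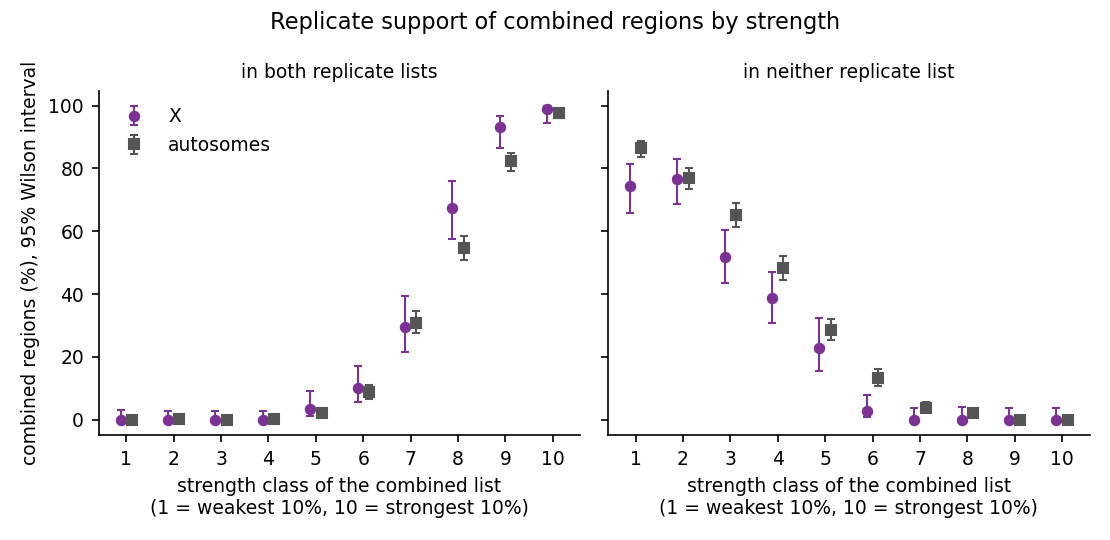
Share of combined regions found in both replicate lists (left) and in neither (right), in 10 equal classes of strength over the whole list, for X and for all autosomes, with 95% Wilson intervals. On X the share in both goes from 0% in the weakest 4 classes to 97 of 98 regions in the strongest, and the share in neither is 0% from class 7 upward. The lists share libraries, so strength and support are not independent.

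The strongest X regions without full support were much weaker than the 20 above. Among regions in replicate 1 only, the first was 4100833 to 4102553, 1721 bp wide, with a strength of 13.6 in the combined list and 6.90 in replicate 1. It ranked 93 on X. The next were 1451657 to 1452583, 2070748 to 2071977, 6292149 to 6292982 and 8017084 to 8018872, with combined strengths of 9.58 to 10.9 and replicate 1 strengths of 5.56 to 8.89. These 5 were 834 to 1789 bp wide, and replicate 2 had no call in any of them.

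Regions in replicate 2 only were fewer, with a higher median strength than those in replicate 1 only but a lower maximum. Their 5 strongest, at 11557632 to 11558545, 4307290 to 4308169, 14824495 to 14825038, 17519341 to 17519770 and 13686863 to 13687505, had combined strengths of 5.52 to 5.99. Replicate 2 strengths for them were 2.60 to 4.97, the highest at 13686863. Regions in neither replicate were led by 5098283 to 5099265 (983 bp, strength 4.26) and 2927562 to 2928269 (708 bp, strength 4.07). The next, at 10236868 to 10237511, 2495713 to 2496284 and 4616771 to 4617396, had strengths of 3.89 to 4.03. All X regions called in the combined list alone were thus of modest strength.

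Regions on X were broad for their strength. Their median width was 451 bp, against 324 to 357 bp on the 5 autosomes, and X had the highest median of the 6 chromosomes there. The same held in replicate 1 (435 bp against 310 to 358 bp). In replicate 2 it ranked 2, at 542.5 bp, behind chromosome I at 559 bp. A width of 1 kb or more was reached by 113 X regions, or 10.2% (8.56 to 12.1), against 6.41% of autosomal regions and 4.70 to 7.90% by autosome. In an exact permutation test of X against the 5 autosomes, with the chromosome as the unit, the width difference had p = 0.167 for combined regions, p = 0.167 for replicate 1 and p = 0.5 for replicate 2. The smallest p this test allows is 0.167, so no comparison of X with the autosomes can reach 0.05. The p-values were adjusted by Benjamini-Hochberg over 9 comparisons, which were chosen with earlier results of these data known. The adjusted p was 0.501 for width, close neighbours and central share, and 0.749 to 1 for the other 6 results, all by the exact permutation test.

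The extra width on X was smallest among the strongest regions. In the strongest of the 10 strength classes the median was 921.5 bp on X and 843 bp on the autosomes, a ratio of 1.09. In the other 9 classes the ratio lay between 1.31 and 1.58. Split by support instead, the medians on X and on the autosomes were 710.5 and 541 bp for regions in both replicates and 339 and 253 bp for regions in neither. The weak, unsupported regions on X were therefore wider than their autosomal counterparts as well. Width and strength went together on X, with a Spearman's rho of 0.62 across its 1107 regions (0.66 across the autosomal regions), which is given as a description because both come from the same calls. At the narrow end, 23 X regions were under 50 bp, down to 1 bp.

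Over all regions of each list, both the number of regions per Mb and the called area of X lay within the autosomal range. X carried 62.6 regions per Mb, against 61.4 to 99.8 on the autosomes (exact permutation p = 0.5), and the called regions covered 3.64% of its span, against 2.87 to 4.24%. In replicate 1 the covered share was 2.38% on X and 1.95 to 2.98% on the autosomes, and in replicate 2 it was 1.39% and 0.969 to 2.01%. X ranked 3 of 6 in covered share in the combined list and 4 in each replicate. In regions per Mb it ranked 5, 4 and 5 in the combined, replicate 1 and replicate 2 lists. Among combined regions of strength 5 or more X fell below the autosomes, at 20.8 per Mb against 21.8 to 42.9 (exact permutation p = 0.333). The span is position 1 to the end of the last region on the chromosome in any list, 17.7 Mb for X.

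**Figure D3:**
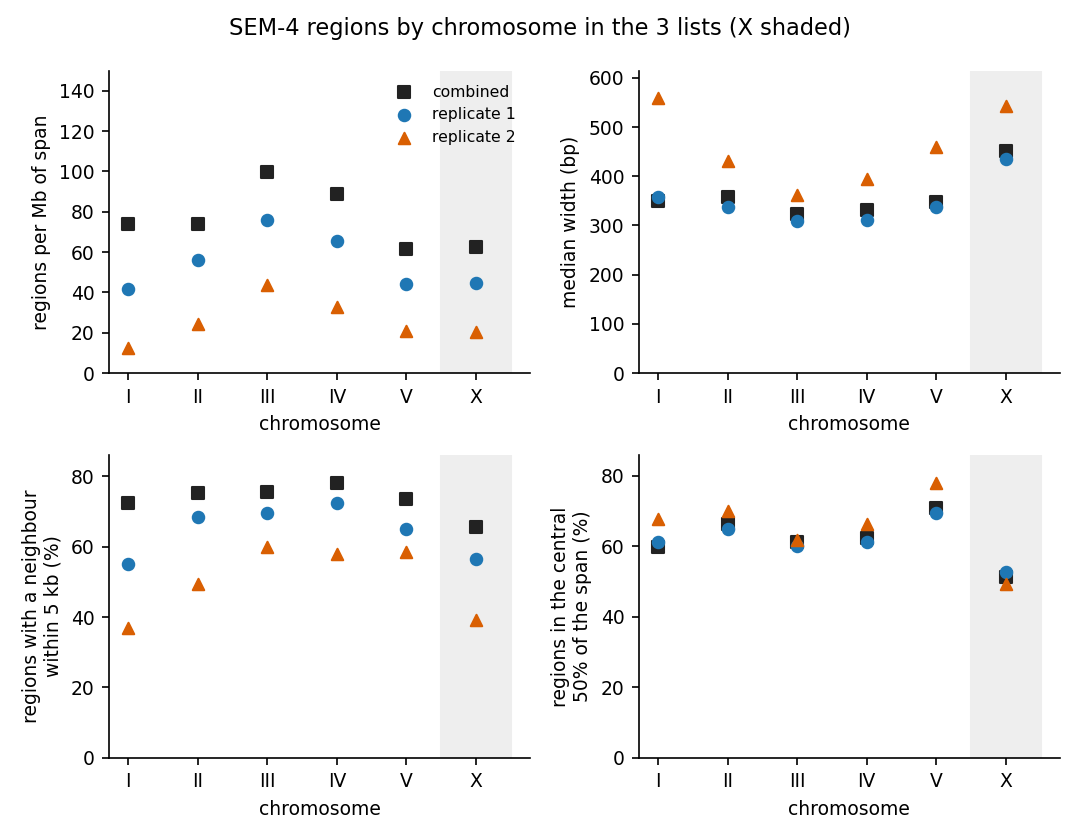
Regions per Mb, median width, share of regions with a neighbour within 5 kb and share with a midpoint in the central 50% of the span, for each chromosome in the combined, replicate 1 and replicate 2 lists. X (shaded) has the lowest central share in all 3 lists, 49.2 to 52.7%, and the highest median width in the combined and replicate 1 lists.

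Counts per 1 Mb bin varied less along X than along any of the autosomes in each list. Over the 17 full 1 Mb bins of X the combined list held 31 to 89 regions, with a mean of 62.8 ± 13.3 (SD), a coefficient of variation of 21.2%. On the autosomes the coefficient ran from 26.8 to 52.3%. X was also the lowest of the 6 chromosomes in replicate 1, at 24.3% against 28.8 to 51.5%, and in replicate 2, at 31.1% against 31.4 to 69.9%, where the margin over chromosome III was small. The exact permutation test over chromosomes gave p = 0.333 in each list. These are 3 of 15 tests (5 measures in 3 lists) added after the values were seen, and the adjusted p was 0.5 for each of the 3 by the exact permutation test.

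**Figure D4:**
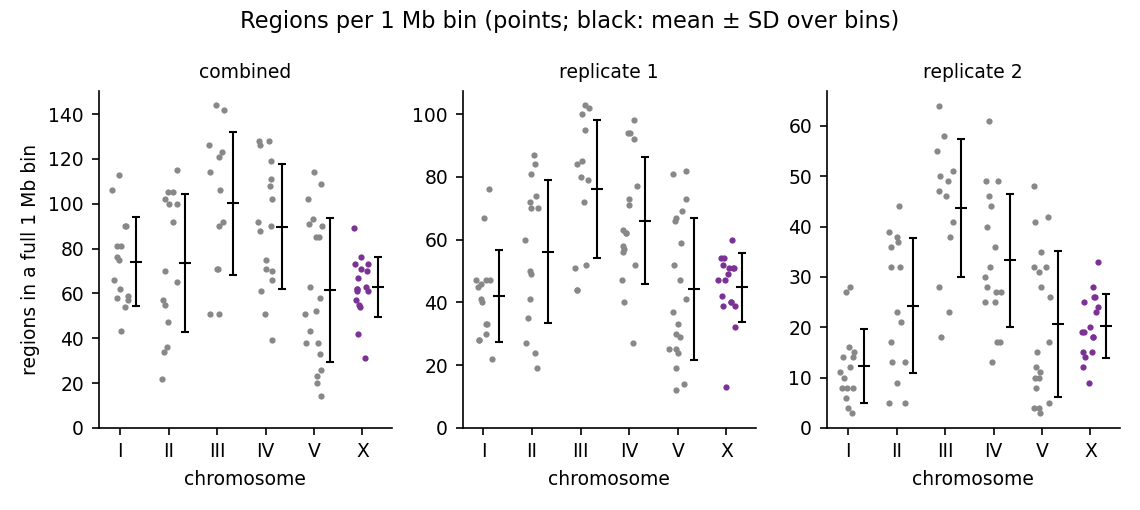
Number of regions in each full 1 Mb bin, by chromosome, in the combined, replicate 1 and replicate 2 lists (points, with black marks for the mean ± SD over bins). X bins are bunched between 31 and 89 in the combined list, while bins of chromosome V run from 14 to 114.

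The emptiest full bin of X was its left end, the first Mb, with 31 combined regions, 13 in replicate 1 and 9 in replicate 2. The fullest was from 13000001 to 14000000, with 89, 60 and 33. The bin from 7000001 to 8000000 had 62 combined regions but the lowest share in both replicates, 14.5%, and its strongest region had a strength of 16.3. The first Mb also lacked strong regions, with a highest strength of 17.6. Every other bin of X held at least 1 region with a strength of 22.1 or more.

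A share of 51.3% (48.4 to 54.2) of X regions had the midpoint in the central 50% of the span, and the 5 autosomes had 59.8 to 70.7%. The share on X was 52.7% in replicate 1 and 49.2% in replicate 2, and it was the lowest of the 6 chromosomes in each list (exact permutation p = 0.167, the smallest possible, in each). Among X regions of strength 5 or more it was 48.8%, against 62.4 to 75% on the autosomes. The central share on X was thus no higher among strong regions than among all regions.

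Neighbours on X were farther apart. A neighbour within 5 kb was found for 726 X regions, or 65.6% (62.7 to 68.3), against 75.2% of autosomal regions and 72.5 to 78.2% by autosome. The median distance to the nearest region was 2441 bp on X and 1331 to 1830 bp on the autosomes. X had the lowest share in the combined list (exact permutation p = 0.167). In the replicates chromosome I, which had fewer regions per Mb there, was lower than X, at 55.1% against 56.4% in replicate 1 and 36.8% against 39.2% in replicate 2 (exact permutation p = 0.333 in both).

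Chromosome V gives a comparison at nearly the same number of regions per Mb. The combined list had 62.6 per Mb on X and 61.4 on V, replicate 1 had 44.4 on each, and replicate 2 had 20.5 on X and 20.6 on V. The share with a neighbour within 5 kb was 65.6% on X and 73.7% on V among combined regions. Replicate 1 gave 56.4% on X and 65.1% on V, and replicate 2 gave 39.2% and 58.5%. X had the lower share in each list. The match is in mean density only. In the combined list 70.7% of V regions had the midpoint in the central 50% of the span, against 51.3% on X. Replicate 1 gave 69.5% and 52.7%, and replicate 2 gave 78.0% and 49.2%. The part of this uneven layout in the spacing difference was not tested. V was chosen for its density after the values were seen, and 1 chromosome against another allows no test with the chromosome as the unit.

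The spacing difference was seen across strengths. The share with a neighbour within 5 kb was lower on X than on the autosomes in 10 of the 10 strength classes. It was 60.3% against 71.9% in the weakest class and 69.4% against 88.0% in the strongest. The gap was smallest in class 6, at 71.6% against 74.1%. A neighbour could be of any strength, so the classes are not separate checks. When only regions of strength 5 or more were kept, 37.9% on X and 49.4 to 63.1% on the autosomes had another such region within 5 kb. X was the lowest of the 6 chromosomes in this measure (exact permutation p = 0.167). Regions of this strength were also sparser on X, at 20.8 per Mb against 21.8 to 42.9 on the autosomes. The whole combined list had 62.6 per Mb on X and 78.2 on the autosomes together. The part of density in the spacing difference was not tested.

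Chains of regions with gaps of at most 5 kb summarise the same layout. The 1107 X regions formed 628 chains, and 381 regions, or 34.4%, stood alone, against 21.8 to 27.5% on the autosomes. Chains of 5 or more regions held 14.6% of X regions and 23.8 to 34.5% of those on each autosome. In the replicates X lay inside the autosomal range. Such chains held 11.1% of X regions in replicate 1 (7.94% on I to 26.6% on III) and 8.01% in replicate 2 (2.70% on I to 15.4% on III), and single regions were 43.6% and 60.8% on X against 44.9% and 63.2% on I. The largest chain on X ran from 12158558 to 12188970 with 14 regions, 10 regions in replicate 1 and 5 in replicate 2. It held no region stronger than 13.1, so the largest chain was not among the strongest places on X.

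The next 5 chains were tied at 8 regions each. Those from 8010672 to 8036952 and from 6240308 to 6263539 contained the regions ranked 5 and 8 on X. The chain from 12651369 to 12672277 was different in kind. Its strengths stopped at 13.8, but their median was 10.0 and 5 of its 8 regions were in both replicates. The chain from 1051042 to 1064611, with 8 regions and a highest strength of 8.08, lay in the sparser left part of X. A chain of the same size from 5811841 to 5821558 packed 8 regions into 9718 bp.

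The densest 100 kb bins on X were 6200001 to 6300000, with 18 combined regions, and 5800001 to 5900000 and 13300001 to 13400000, with 17 each. The median X bin held 6. In replicate 1 these bins held 16, 10 and 11 regions, and in replicate 2 they held 8, 10 and 6. The first also contained the broad region at 6251588, and the second the region at 5840771, which ranked 8 and 19 on X by strength.

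The longest stretches of X without a combined region were at its left end, up to 324010 (324 kb), from 1627477 to 1909343 (282 kb) and from 17168304 to 17392042 (224 kb). Shorter ones ran from 12206146 to 12344975 (139 kb) and from 11819039 to 11937108 (118 kb). Replicate 1 had 1 region in the first and 1 in the fourth of these, and replicate 2 had none in any. The 3 longest lay within 2 Mb of an end of the called span. Mappability was not examined, so a stretch without a call is not shown to be unbound.

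Overlap between the replicate lists on X lay within the autosomal range. Of the 362 replicate 2 regions on X, 311 overlapped replicate 1, or 85.9% (81.9 to 89.1), and the autosomes had 84.6 to 95.1%. Of the 786 replicate 1 regions, 310 overlapped replicate 2, or 39.4% (36.1 to 42.9), against 27.6 to 48.0%. The strongest 50 X regions of either replicate were all shared with the other, and of the strongest 200, 172 were shared in replicate 1 and 188 in replicate 2. Shared replicate 1 regions had a median strength of 5.78 and those without a counterpart 2.62. Replicate 2 gave 3.86 and 2.36.

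Each overlapping replicate 2 region was paired with the replicate 1 region it shared most bases with. Where several lay in 1 replicate 1 region, each was set against the strength of the whole. Pairs are therefore not all independent, which the interval below ignores. In the overlapping pairs, replicate 2 was usually the weaker. It had the lower strength in 251 of 311 pairs on X, or 80.7%, and its strength divided by that of replicate 1 had a median of 0.67 (95% interval of the median from order statistics 0.62 to 0.71). The ratio was 0.61 to 0.76 on the autosomes, and the exact permutation p for X was 1. Spearman's rho between the replicates was 0.70 across the 311 pairs, as a description of 1 pair of libraries. The pair that departed most in favour of replicate 2 lay at 14561343 to 14562909, with strengths of 15.6 in replicate 2 and 5.91 in replicate 1. It was singled out after its values were seen. The 2 calls overlap only in part, since replicate 1 placed its region at 14562215 to 14563123.

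**Figure D5:**
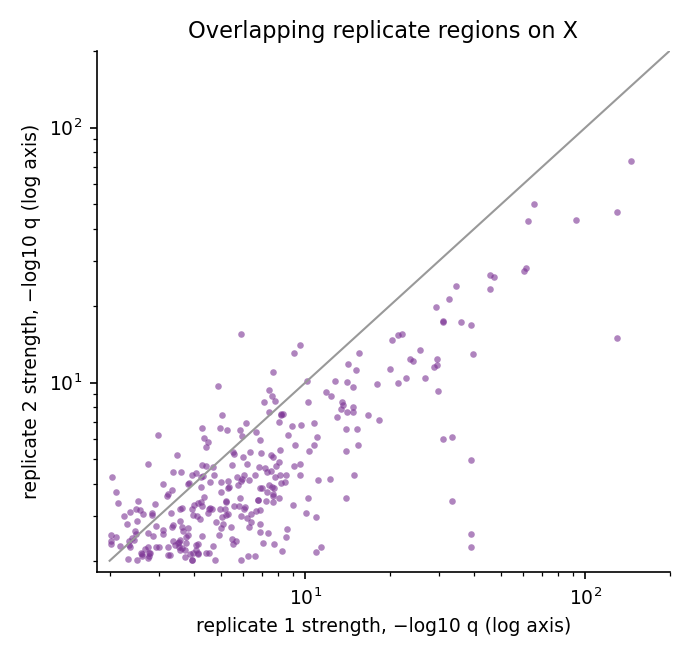
Strength (−log10 q, log axes) in replicate 1 and replicate 2 for the 311 replicate 2 regions on X that overlap a replicate 1 region, with the line of equality in grey. Replicate 2 is lower in 251 of the 311, and the points rise together with a rho of 0.70.

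The strongest X regions called in 1 replicate list and not the other were modest. In replicate 1 these were 2070880 to 2071977, 1451657 to 1452595 and 11059481 to 11060162, with strengths of 8.19 to 8.89 and ranks of 80 to 90 on X. In replicate 2 they were 13686799 to 13687456, 17519341 to 17519739 and 16798917 to 16799426, with strengths of 4.45 to 4.97 and ranks of 105 to 121. Every stronger X region of either list had a counterpart in the other.

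Most replicate regions were also in the combined list, on X as on the autosomes. The combined list overlapped 746 of the 786 replicate 1 regions on X, or 94.9%, against 92.5% on the autosomes. It overlapped 360 of the 362 replicate 2 regions, or 99.4%, against 99.2%. Of the 40 replicate 1 regions that it did not overlap, the strongest, at 5790649 to 5790781, had a strength of 3.48 and a width of 133 bp. The next 4, at 2088456, 2438581, 11451338 and 1151020, were 21 to 110 bp wide with strengths of 2.73 to 3.29. The replicate 2 regions were 2066208 to 2066260 and 4426319 to 4426787, with strengths of 2.39 and 2.14. Where a combined region did have replicate calls, it was nearly always matched by a single one: 710 of 728 in replicate 1 and 331 of 344 in replicate 2. The replicate calls covered a median of 89.1% and 84.4% of the combined region.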

How the data were processed

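The deposited files are 3 lists of regions called with PeakSeq on WormBase WS220, per the file headers: 1 for each ChIP library and 1 combined list. For each region the authors deposited its position and a q-value, the largest being 0.00998. The sources used here do not give the aligner, filters, controls, original build or way of combining replicates. Comment lines record changes from a coordinate conversion, 0 of them on X. Of the 2 ChIP and 2 input libraries, inputs have no list here.

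From these, strength, width, overlap (at least 1 bp), nearest-neighbour distance and position were computed with Python 3.11.15, numpy 2.4.6, scipy 1.17.1 and pandas 2.3.3 (figures with matplotlib 3.10.9). Overlap counts equalled those of bedtools 2.31.1, and the functions were tested on simulated lists. X was compared with the 5 autosomes by the absolute difference from their mean, permuting the 6 chromosomes exactly (two-sided by construction). Named regions were the 20 strongest, the 5 strongest of each class without full support, the 5 widest, the 5 longest empty stretches, the 3 densest 100 kb bins, the 5 largest chains (6 with a tie) and the 5 strongest replicate regions outside the combined list. Others, such as the unshared replicate regions and those of single bins, were picked with their values in view. The alternatives tried were a strength of 5 or more, overlap of 50%, the partner with the lowest q and replicate 1 cut to the length of replicate 2. Others were regions less than 500 bp apart joined, neighbours within 2 kb, regions of 1000 bp or less and the span from first to last region. Each replicate was also left out, by using only the list of the other. Leaving out regions under 50 bp or chromosome I was added after the data were seen. The regions, lists and tests were chosen with earlier results of these data known.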

Additional observations from a re-analysis of the deposited data

How the results depend on the processing

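Of 45 values under alternatives, 22 stayed within the spread and on the same side of the autosomal mean, 16 moved and 7 turned to the other side of that mean. For regions per Mb, width and strength the spread was 1 SD of the 2 replicate lists. For shares and the strength ratio it was a 95% interval. For regions per Mb, width and strength, the values with 1 replicate left out are those that set the spread. They are therefore no separate check against it. Leaving out chromosome I does not change the value of X, so those alternatives could only stay or turn. X stayed wider, sparser, less central and less closely spaced than the autosomal mean under all alternatives run for those results. Against the range of the autosomes, only the central share of X lay outside under all of them. Regions per Mb lay inside that range except at a strength of 5 or more. Width lay inside it with only the replicate 2 list, and close spacing with either replicate list alone. With a strength of 5 or more, X had 20.8 regions per Mb, a median width of 709 bp and 37.9% with a neighbour within 5 kb, 75.5% were in both replicates (above the autosomal mean) and 0% in neither, and 100% of replicate 2 regions overlapped replicate 1 (above). With 50% overlap of both regions, 23.0% were in both replicates (level with the mean, 0.04 points above), 34.1% in neither, and 76.5% of replicate 2 regions overlapped replicate 1. That last share was 69.6% (0.53 points above) with replicate 1 cut to the length of replicate 2. Spacing gave 61.9% with regions under 500 bp apart joined and 45.5% within 2 kb. The median strength was 3.31 for regions of 1000 bp or less.

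Leaving out 1 replicate meant using the list of the other, and no regions were called anew. These lists gave 20.5 to 44.4 regions per Mb, widths of 435 to 542.5 bp and 39.2 to 56.4% with a neighbour within 5 kb. Strengths were 3.18 to 3.42 (above the mean in replicate 2 alone). For overlap the combined list was kept and set against 1 replicate list. This left 34.2 to 68.9% without an overlap (above the mean against replicate 2 alone). Without chromosome I, a choice made after the values were seen, the 30.1% of X regions in neither replicate lay above the mean of the other autosomes, 28.7%. Where a stricter limit on strength or overlap was set, fewer regions or overlaps remained by construction; otherwise the cause was not tested. No paired analysis was possible because only the ChIP library of each numbered pair has a region list here. Depth is unknown, so lower strengths in replicate 2 are not shown to be weaker binding.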
